A study of Homo sapiens with 10 samples.

Results

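The kallikrein-related peptidases are secreted serine proteases made as inactive precursors, and their genes lie side by side on chromosome 19. Transcripts of 7 of them, KLK5, KLK6, KLK7, KLK8, KLK10, KLK11 and KLK13, were followed in SKBR3 cells through every probe set that the platform annotation assigns to one of these symbols alone, 12 of the 54675 probe sets on the array. KLK13 had 3 probe sets, KLK7, KLK8 and KLK10 had 2 each, and KLK5, KLK6 and KLK11 had 1 each. A further probe set, shared between KLK8 and KLK9, carries both symbols and was left out.

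In the skin, KLK5 and KLK7 cleave the junction proteins that hold the outermost cells together, and the inhibitor LEKTI, the product of SPINK5, restrains them. In breast and ovarian tissue several family members are made by epithelial cells and shed into secretions. Calcitriol acts through the vitamin D receptor, a nuclear receptor that binds DNA as a partner of retinoid X receptors.

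SKBR3 is an established breast carcinoma line with an amplified HER2 gene, and all arrays come from this 1 line, which carries mutant p53. The cells were kept in medium with charcoal-stripped serum and received siRNA against p53 (p53i) or, as the negative control, against the bacterial LacZ gene (LacZi). For each siRNA, 2 arrays came from untreated cells and 1 each from cells given calcitriol (D3) at 100 nM for 8, 20 or 50 h, which makes 10 arrays in 8 groups. The labels' texts put the addition of D3 at 24 h and at 48 h after transfection, and the sources used here do not settle which. The untreated pairs are labelled as biological replicates, and nothing states separate cultures for the D3 arrays, so p-values measure the spread between these arrays only. The untreated arrays carry no harvest time that matches a D3 time, so an effect of D3 cannot be told apart from one of longer culture. The comparisons ask whether D3 or the p53 siRNA changes these transcripts and whether the D3 response differs between the siRNAs.

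The arrays had median signals of 35.7 to 44.3, and the siRNA's own target was not analysed here. All 9 luminal and HER2 markers examined, among them ERBB2, KRT18 and GATA3, were above background on 10 of 10 arrays. Of 14 measured markers of squamous keratinocytes, the cells best known for several kallikreins, 7 were above background on no array, including KRT1, KRT14 and FLG, and 3 (KRT10, IVL and TGM1) on all of them. Their summed signal was 7559 to 8829 on untreated and 6763 to 8804 on D3 arrays, most of it from KRT10 alone (5833 to 7850), and 0 of them passed the test for D3. Of 13 measured stromal, endothelial, blood and liver markers 6 were above background on no array and COL1A1 (271 to 450) and PECAM1 (82.0 to 142) on all of them, and their summed signal was 597 to 774 on untreated and 582 to 977 on D3 arrays. The ACTB ratio, meaning the array's 3' ACTB control over its 5' one, which goes up as RNA is degraded, was highest on p53i untreated replicate 2 (8.72) and p53i 20 h (7.11) and 3.79 to 6.12 on the others.

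The deposited table holds no detection calls, so background was set from 107 single-symbol probe sets of olfactory receptors, which are little expressed outside the nose. A probe set was taken as above background on an array where its signal exceeded the 95th percentile of these 107, a limit of 44.1 to 69.8 signal units depending on the array. By this limit KLK6 was above background on 6 of 10 arrays and none of the other 11 member probe sets on more than 4. Of the other 11 probe sets, 6 were above it on none and 5 on 1 to 4 arrays. On all arrays 34.3% of probe sets were above the limit throughout and 44.8% on no array. Signals at or under the limit carry little information on the level of a transcript, and the values below are given with that in mind.

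The upstream windows of KLK6, the only member called for D3, and of KLK13, which was not called, are shown here for comparison. Each holds 250 bases before and 50 after an annotated start, from RefSeq on GRCh38.p14, minus strand. Capitals mark 5 hexamers that resemble receptor half-sites, searched on both strands. They are AGGTCA (in 13.8% of 35116 such windows), GGTTCA (8.62%), AGTTCA (10.4%), GGGTCA (14.1%) and GGGTGA (16.8%), and matches of different hexamers may overlap.

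KLK6 (chr19:50969542-50969841): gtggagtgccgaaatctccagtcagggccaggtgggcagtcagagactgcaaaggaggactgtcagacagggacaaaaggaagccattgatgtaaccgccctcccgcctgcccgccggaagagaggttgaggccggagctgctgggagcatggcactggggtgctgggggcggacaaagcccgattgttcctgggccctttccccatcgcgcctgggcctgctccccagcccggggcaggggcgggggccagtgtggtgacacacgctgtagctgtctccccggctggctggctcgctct

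KLK13 (chr19:51065043-51065342): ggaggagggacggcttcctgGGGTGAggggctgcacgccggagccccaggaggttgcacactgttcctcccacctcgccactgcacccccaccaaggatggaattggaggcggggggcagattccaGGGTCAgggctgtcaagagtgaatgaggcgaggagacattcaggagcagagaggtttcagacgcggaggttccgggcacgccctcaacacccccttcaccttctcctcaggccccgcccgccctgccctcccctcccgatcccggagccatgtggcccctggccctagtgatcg

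The KLK6 window held none of these hexamers, and the KLK13 window shown held GGGTGA and GGGTCA, beginning at positions -230 and -124 from the start. Another KLK13 window, of an alternative start and not shown, held AGGTCA at -117 and GGGTCA at -43. Windows were found for 6 of the 7 genes, 11 in all, of which 7 held at least 1 of the hexamers, where 48.4% of all 35116 windows did. Some of the 11 belong to alternative starts of the same gene and overlap. A KLK7 match and a KLK10 match are each counted in more than 1 window, so these counts are not independent. None of the 11 held 2 hexamers on 1 strand with 3 bases between them, a spacing found in 0.105% of all windows. These matches describe letters in short windows and say nothing about binding.

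KLK6 (probe set 204733_at), a trypsin-like protease also called neurosin and protease M, was the member that changed with D3. Its signal was 24.4 and 35.6 on the untreated LacZi arrays and 13.3 and 25.0 on the untreated p53i arrays. With D3 for 8, 20 and 50 h the LacZi arrays read 64.2, 143 and 395. The p53i arrays read 74.6, 77.8 and 116. All 6 D3 arrays lay above all 4 untreated arrays, an arrangement seen in 1.36% of 54613 probe sets, and the LacZi 50 h array stood highest. The LacZi and p53i arrays overlapped. In RNA from bulk cells, more cells with the transcript and more transcript per cell cannot be told apart.

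**Figure D1:**
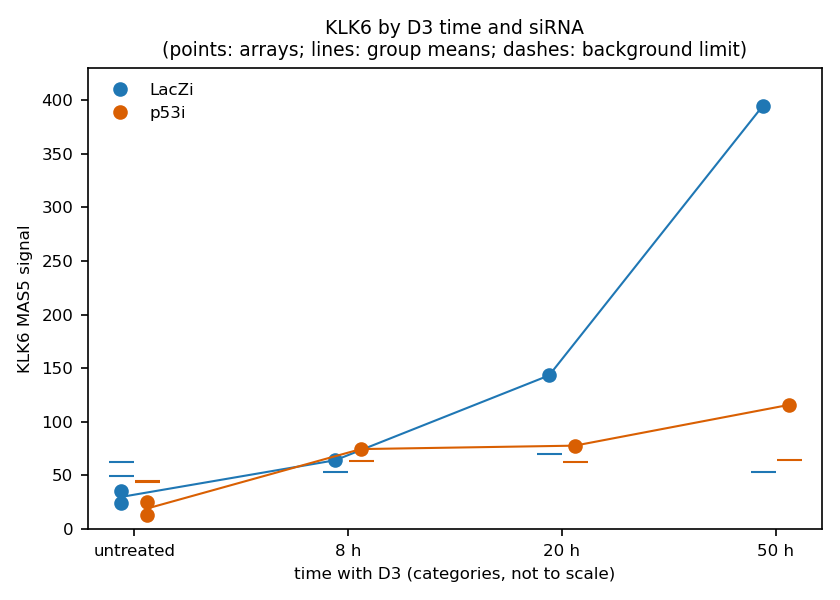
KLK6 signal on each of the 10 arrays (points) by time with D3, with lines through the group means and short dashes at each array's background limit. The 4 untreated arrays sit at 13.3 to 35.6, under their limits, and the 6 D3 arrays at 64.2 to 395, over theirs.

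The rise took KLK6 across the background limit. It was under the limit on 4 of 4 untreated arrays and over it on 6 of 6 D3 arrays, a pattern that only 5 of 54613 probe sets (0.00916%) showed. The other 4, chosen after their values were seen, were the calcitriol-inactivating CYP24A1, PNMT of adrenaline synthesis, the transcription factor MAFG and 1 probe set without a symbol. The margin was narrow at 8 h, with KLK6 at 1.20 times the limit in LacZi and 1.18 times in p53i cells, and 1.24 times in p53i cells at 20 h. In LacZi cells the 20 h and 50 h signals were 2.05 and 7.41 times the limit, and in p53i cells the 50 h signal was 1.80 times. With the 99th percentile of the olfactory receptors as the limit, KLK6 was above it on 3 D3 arrays and still on no untreated array.

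Because the untreated signals were not above background, the fold change is given as a bound, the mean D3 signal against the higher of the measured signal and the limit, on the log2 scale without an offset. It bounds the untreated level only. The D3 signals are taken as measured, so the spread between arrays is left out and a bound over 1-fold does not by itself show a rise. Over the 6 D3 arrays the bound for KLK6 was 2.33-fold. In LacZi cells the bounds were 1.15-fold at 8 h, 2.56-fold at 20 h and 7.05-fold at 50 h. In p53i cells they were 1.69-fold at 8 h, 1.76-fold at 20 h and 2.62-fold at 50 h. Each of these times rests on 1 array per siRNA.

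On the log2(signal + 16) scale, which understates changes of weak signals, KLK6 rose by 1.76 ± 0.27 (SE) over the 3 times, with a 95% interval of 1.17 to 2.34 (limma adjusted p = 0.0162 over 54613 probe sets). The means were 24.6 ± 9.11 (SD, n = 4) untreated and 145 ± 126 (SD, n = 6) with D3. KLK6 was 1 of 12 member probe sets called, where 0.526% of all probe sets were called, 0.33% of them upward. It ranked 6 of 54613 by the size of the rise and 95 by p. At 50 h it rose by 2.55 ± 0.36 (adjusted p = 0.0117), where 0.487% of all probe sets were called. At 8 and 20 h the differences were 1.10 ± 0.36 and 1.62 ± 0.36, neither called (adjusted p = 0.769 and 0.187), and at those times 0.0311% and 0.0439% of probe sets were called. The 3 times share the same 4 untreated arrays.

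The KLK6 call depended on single arrays and on the model. Over the 3 times it was not called without LacZi untreated replicate 1 (1.65, limma adjusted p = 0.0767), LacZi 20 h (1.72, 0.0872), LacZi 50 h (1.54, 0.0704), p53i 8 h (1.59, 0.0676) or p53i 20 h (1.79, 0.0761), while the size stayed between 1.54 and 1.97 with any 1 of the 10 arrays left out. The 50 h call was lost without LacZi 50 h (1.90, 0.166) or p53i 50 h (3.20, 0.0511). Without an intensity trend the adjusted p was 0.132 over the times and 0.118 at 50 h, with 8 group means 0.187 and 0.185, and with an offset of 64 the difference over the times was 1.09 (0.0520). With no offset it was 2.32. With the ACTB ratio as a covariate KLK6 stood at 1.75 (0.0153) and without the 2 arrays of highest ratio at 1.90 (0.0490).

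For scale, CYP24A1 rose by 6.69 ± 0.10 over the 3 times, with signals of 23.7 to 40.0 untreated and 4234 to 6476 with D3 (limma adjusted p = 4.3e-12). TRPV6, the epithelial calcium channel, rose by 1.55 ± 0.15 (adjusted p = 0.00152), a call lost without an intensity trend (adjusted p = 0.0962) and with 8 group means (0.0667). VDR and RXRA were above background on 10 of 10 arrays.

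KLK6 signals diverged between the siRNAs with time in D3 without passing a test. The LacZi over p53i ratio of the signals went from 0.861 (8 h) through 1.84 (20 h) to 3.41 (50 h). From 8 to 50 h it went up 6.15-fold in LacZi and 1.55-fold in p53i cells. Between those times, over both siRNAs, the log2 difference was 1.45 ± 0.42 (limma adjusted p = 0.569), where 0.00366% of probe sets were called.

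The difference in the D3 effect between the siRNAs, p53i minus LacZi, was -0.35 ± 0.55 over the times, with a 95% interval of -1.56 to 0.87 (limma adjusted p = 0.962). Here 0 of 12 members and 0 of 54613 probe sets were called, and 0 of 12 members had an unadjusted p under 0.05, against 3107 of all probe sets. With 1 array left out, probe sets were called for this difference only without p53i untreated replicate 1. That fit leaves p53i untreated replicate 2, the array with the highest ACTB ratio (8.72), as the only untreated p53i array. Within LacZi cells the D3 difference of KLK6 was 1.93 ± 0.39 (adjusted p = 0.203) and within p53i cells 1.58 ± 0.39 (0.194), neither called, and 0.0604% and 0.0165% of all probe sets were. Taken by time, in tests added after the signals were seen, p53i minus LacZi gave 0.57 ± 0.61 for 8 h, -0.37 ± 0.61 for 20 h and -1.24 ± 0.61 for 50 h (adjusted p = 1.00, 1.00 and 0.845). The step from 8 to 50 h differed by -1.82 ± 0.71 (unadjusted p = 0.0390, adjusted p = 1.00). With 1 or the other of the 50 h arrays left out, the difference over the times was 0.10. Each time has its own term, so leaving out 1 of them also takes the other out of this estimate. The 2 fits are therefore 1 result, and the sign of the difference rests on those 2 arrays.

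Between the siRNAs over all conditions, 0 of 12 member probe sets were called, where 0.921% of all probe sets were. That share was 0.103% with the ACTB ratio as a covariate, 0.0952% without the 2 arrays of highest ratio and 0.0916% to 1.22% with 1 array left out, lowest without p53i 20 h. KLK6 had a difference of -0.60 ± 0.26 (limma adjusted p = 0.352), with signals of 132 ± 154 (SD, n = 5) on LacZi and 61.3 ± 41.9 (SD, n = 5) on p53i arrays. In untreated cells alone it was -0.40 ± 0.35 (adjusted p = 0.785), and 0 of 54613 probe sets were called there, 4585 of them and 0 members with an unadjusted p under 0.05. KLK6 and KLK11 were the 2 of 12 members with an unadjusted p under 0.05 over all conditions. Of all 54613 probe sets, 7104 (13%) had one, so a count of 2 says nothing particular about the members.

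**Figure D2:**
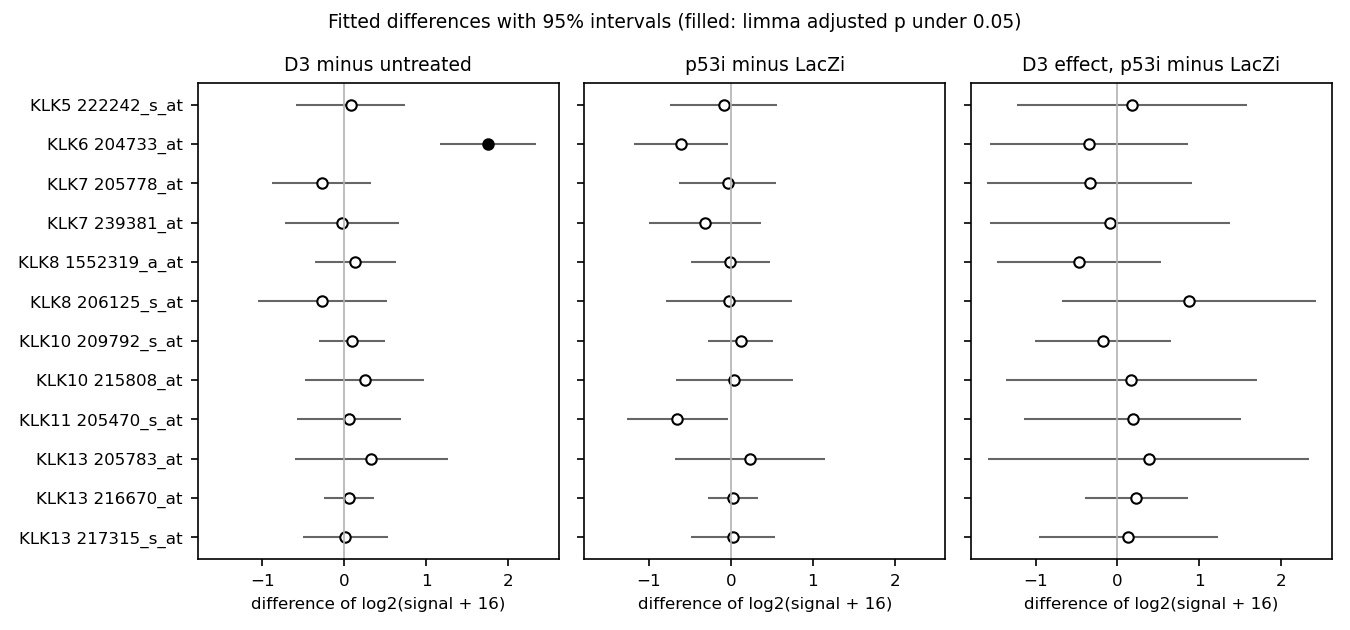
Fitted differences of log2(signal + 16) for each of the 12 probe sets with 95% intervals: D3 minus untreated over the 3 times (left), p53i minus LacZi over all conditions (middle), and the D3 effect in p53i minus that in LacZi cells (right). Only KLK6 in the left panel, at 1.76, is filled as called.

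KLK11 (205470_s_at), also named hippostasin, had signals of 36.2 and 39.2 on untreated LacZi arrays and 22.3 and 10.1 on untreated p53i arrays. With D3 at 8, 20 and 50 h it read 52.3, 41.3 and 20.6 in LacZi and 11.2, 18.6 and 29.8 in p53i cells. The LacZi values were mostly the higher ones, but the groups overlapped, since the LacZi 50 h array lay below 2 p53i arrays, and no array was above background. The difference of p53i minus LacZi was -0.65 ± 0.28 (limma adjusted p = 0.352, unadjusted p = 0.0403), and that of D3 was 0.06 ± 0.29 (adjusted p = 0.970).

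The skin proteases KLK5 and KLK7 showed no call in any comparison. KLK5 (222242_s_at), which activates other kallikreins by cutting off their propeptides, ranged from 17.4 to 65.7 with a median of 46.2. It was above background on 2 p53i arrays, untreated replicate 2 (61.9) and 20 h with D3 (65.7). These 2 arrays had the highest ACTB ratios of all (8.72 and 7.11). Its D3 difference was 0.08 ± 0.31 and its siRNA difference -0.09 ± 0.30 (limma adjusted p = 0.959 and 0.943).

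KLK7, a chymotrypsin-like enzyme, was read by 2 probe sets, 1 of which was above background on 1 array and the other on none. On 205778_at the untreated signals were 41.6 and 24.8 in LacZi and 47.4 and 30.5 in p53i cells. The D3 arrays at 8, 20 and 50 h read 6.59, 45.0 and 50.4 in LacZi and 12.1, 17.4 and 51.7 in p53i cells. Both 8 h arrays were low, with a difference of -1.03 ± 0.37 at 8 h (limma adjusted p = 0.814). The step from 8 to 50 h was 1.41 ± 0.43 (adjusted p = 0.581, unadjusted p = 0.00656), all of it at or under the background limit. The other probe set, 239381_at, did not share this shape, with 8 h signals of 32.0 and 49.1 and a lowest value of 6.56 on the p53i 20 h array.

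KLK8, or neuropsin, studied mostly in brain and skin, was read at 5.46 to 19.3 by 1552319_a_at, above background on no array. By 206125_s_at it was read at 11.1 to 53.4, above background on p53i untreated replicate 1 only (45.2). The D3 differences were 0.14 ± 0.23 and -0.27 ± 0.36. KLK10, whose expression is described as lost in many breast tumours, was above background on no array with either probe set. It read 3.32 to 14.6 on 209792_s_at and 3.25 to 29.5 on 215808_at, with D3 differences of 0.09 ± 0.18 and 0.25 ± 0.33.

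KLK13 was read by 3 probe sets that disagreed. On 205783_at it ranged from 7.23 to 116 and was above background on 4 arrays, 2 untreated and 2 with D3. Both extremes came from the untreated LacZi duplicates, which differed 16.1-fold. On 217315_s_at the signals were 28.0 to 32.4 on the 4 untreated arrays. With D3 they were 54.9 and 54.7 at 8 h, 27.6 and 41.9 at 20 h and 13.9 and 10.5 at 50 h, in LacZi and p53i cells in turn. Both 8 h arrays were highest and both 50 h arrays lowest on that probe set. The step from 8 to 50 h was -1.33 ± 0.37 (limma adjusted p = 0.555, unadjusted p = 0.00370) and the 50 h difference -0.71 ± 0.32 (adjusted p = 0.416), with 1 of 10 arrays above background. The remaining KLK13 probe set, 216670_at, stayed at 2.57 to 6.65, above background on none.

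**Figure D3:**
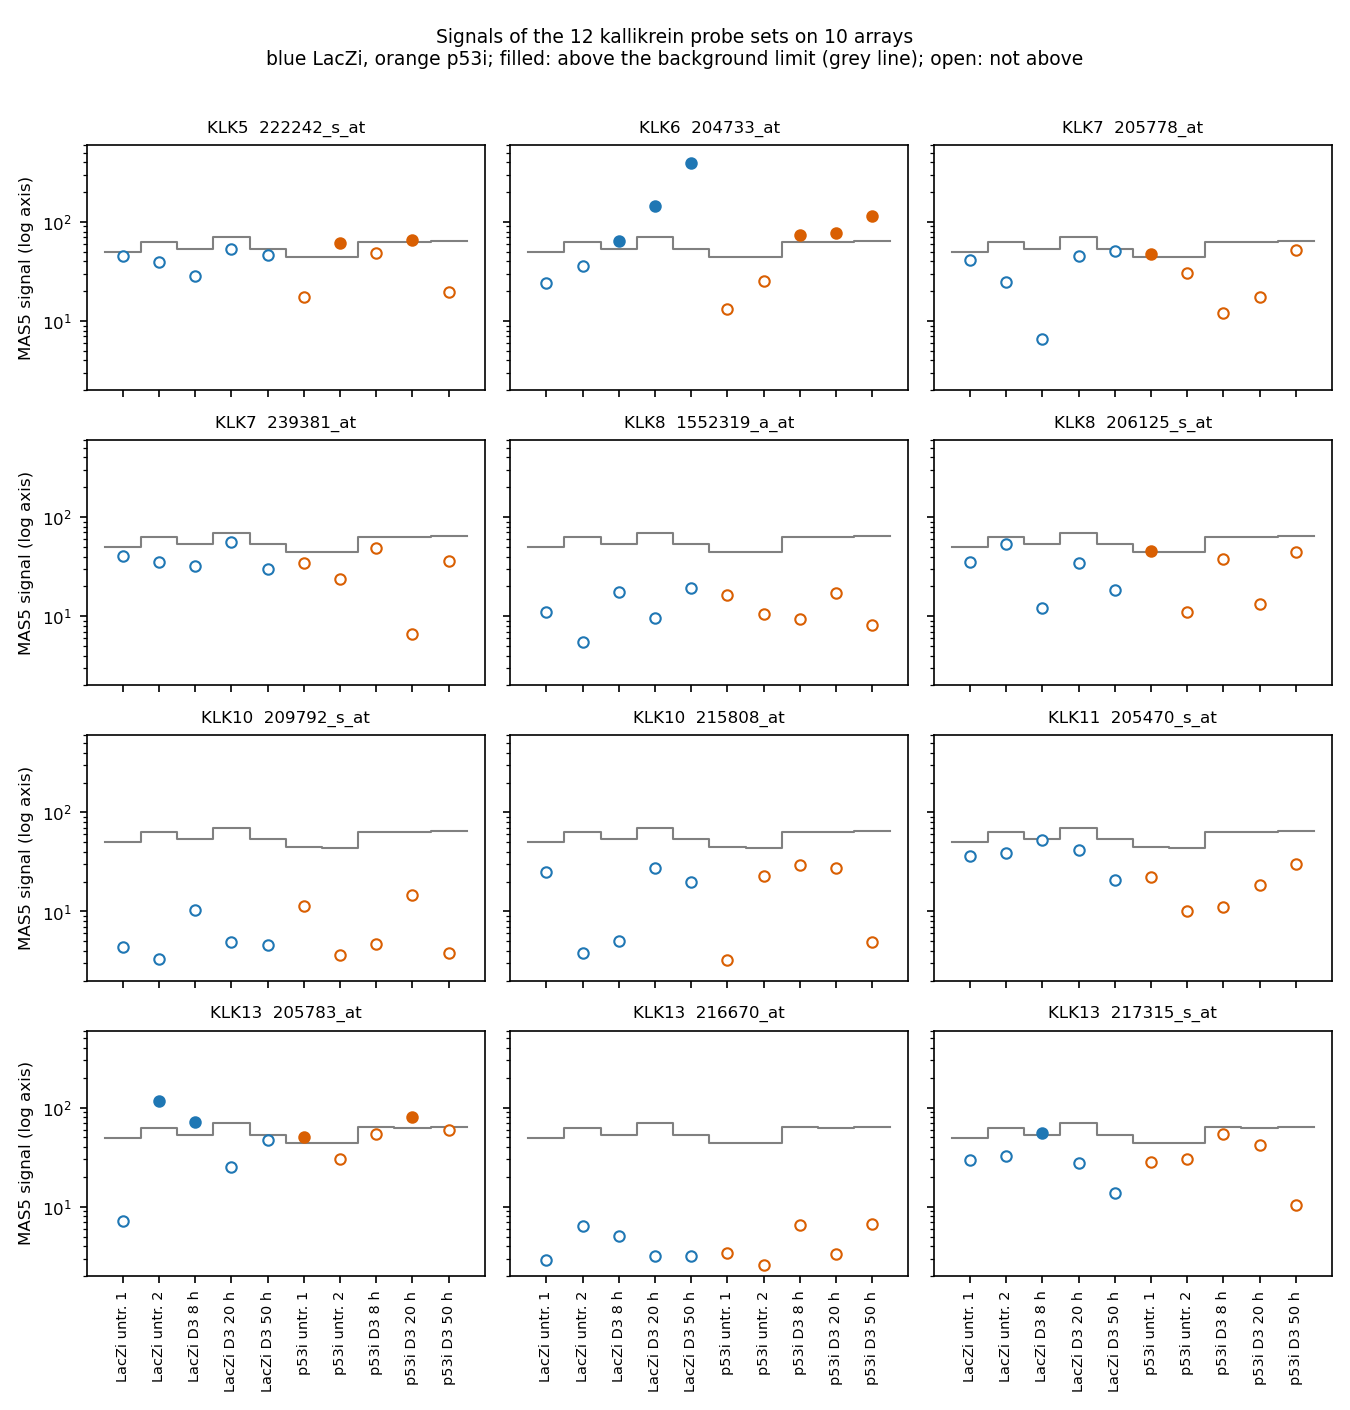
Signal (log axis) of each of the 12 probe sets on the 10 arrays, blue for LacZi and orange for p53i, filled where above the background limit drawn in grey. Only KLK6 is filled on all 6 D3 arrays. Of the 110 values of the other 11 probe sets, 9 are filled.

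Over the 11 probe sets other than KLK6, D3 differences as the mean of the 3 times lay between -0.27 and 0.33. The smallest limma adjusted p was 0.783. Of these 11, 0 had an unadjusted p under 0.05 for that mean, where 11.4% of all probe sets had one. At single times the differences spread wider, -1.03 to 0.62 at 8 h, -0.35 to 0.63 at 20 h and -0.71 to 0.39 at 50 h. The smallest adjusted p at these times were 0.814, 0.736 and 0.416. Of their values, 5 of 44 untreated and 4 of 66 D3 ones were above background. Among their 22 pairs of untreated duplicates 9 differed by more than 2-fold. The median D3 difference of all 12 was 0.07, against 0.04 for all probe sets, and the median siRNA difference was -0.01 against -0.02.

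The neighbours of these genes in the same cluster, KLK1, KLK2, KLK3, KLK4, KLK12, KLK14 and KLK15, gave 0 of 7 calls for D3 and 0 of 7 between the siRNAs, each gene read by its probe set with the highest mean. At the shares over all probe sets (0.526% and 0.921%), a count of 0 of 7 says nothing particular about them. Their median D3 difference was 0.04, as for all probe sets. On these probe sets KLK3 and KLK4 were above background on 9 of 10 arrays each and KLK12 on 7, more arrays than KLK6. Their signals were 60.3 to 245, 47.4 to 152 and up to 130. The other probe sets of these genes were weaker. Their mean signals were 5.53 and 7.19 for KLK3, 19.9 to 44.7 for KLK4 and 21.0 and 54.2 for KLK12, where the background limit was 44.1 to 69.8. KLK5 and KLK7 flank KLK6 in the RefSeq gene order, and neither was called.

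Of the inhibitors of these proteases, 0 of 11 measured passed for D3 or between the siRNAs, to be read against the same shares. SPINT1, SPINT2 and the secretory inhibitor SLPI were above background on 10 of 10 arrays, with signals of 2383 to 3136, 3328 to 5043 and 1379 to 1984. The list's median difference with D3 was -0.01, against 0.04 for all probe sets.

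Of 10 proteases that can activate kallikreins, 0 passed for D3 and 1 rose in p53i cells, with list medians of -0.11 for both differences, where 0.526% and 0.921% of all probe sets were called. This was ST14, the membrane protease matriptase, by 0.48 ± 0.08, from a mean of 1339 to 1876 signal units (limma adjusted p = 0.0183). Another ST14 probe set, with a mean signal of 822, had a difference of 0.12 (adjusted p = 0.703). The call was lost with the ACTB ratio as a covariate (0.39, adjusted p = 0.165) and without the 2 arrays with the highest ratio (0.40, 0.181). It was also lost without any 1 LacZi array or any 1 p53i D3 array (0.46 to 0.50, adjusted p = 0.0534 to 0.130), without an intensity trend (adjusted p = 0.286) and with 8 group means (0.363).

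Among 20 measured substrates and receptors, 0 passed for D3 and 1 fell in p53i cells, with list medians of 0.15 and -0.11, against the same shares of all probe sets. PLAUR, the urokinase receptor, fell by 0.83 ± 0.10 on the log2 scale, from a mean of 356 to 195 signal units (limma adjusted p = 0.00359). A second PLAUR probe set was also called (-0.82, adjusted p = 0.0298), and the remaining one had a difference of -0.50 (0.341). The first call was lost without an intensity trend (adjusted p = 0.125) and with 8 group means (0.273). The skin junction substrates DSG1, DSC1 and CDSN were above background on no array. Of the luminal markers, KRT8 rose in p53i cells by 0.42 ± 0.07 (adjusted p = 0.0263), a call lost in 11 of 22 alternatives. These were 7 of the 10 fits with 1 array left out, the ACTB ratio as a covariate (0.37, adjusted p = 0.190), the 2 arrays of highest ratio left out (0.39, 0.229), no intensity trend (0.288) and 8 group means (0.369).

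The genes whose log2 signals followed KLK6 most closely over the 10 arrays were P2RX2 (Pearson r = 0.981), SLC26A2 (0.958), LMLN (0.949), ERVW-1 (0.948) and WLS (0.946). The ranking took 12034 genes, each read by its strongest probe set among the highest 50% of probe sets by mean over all arrays. A gene low in untreated cells could enter it only through its D3 arrays. These 5 genes share the arrays, the D3 groups and the background with KLK6, and the values are a description. SLC26A2, a sulfate transporter, read 93.2 to 161 untreated. With D3 at 8, 20 and 50 h it read 402, 900 and 1664 in LacZi and 220.0, 374 and 710.3 in p53i cells. WLS, which carries Wnt proteins to the cell surface, read 43.4 to 60.6 untreated, 128, 223 and 444 in LacZi and 84.6, 123 and 217 in p53i cells. P2RX2, an ATP-gated channel, covered a narrower span, 46.1 to 69.3 untreated and 76.2 to 145 with D3. For each of these 5 genes, as for KLK6, the LacZi 50 h array was the highest of the 10, which their selection by correlation with KLK6 favours.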

How the data were processed

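RNA from 10 samples of SKBR3 cells was labelled with biotin (6 ug total RNA) and hybridised to Affymetrix arrays, per the labels' protocols. The deposited values are intensities on a linear scale, MAS5 signals per the submitters' processing notes. No source used here gives its version. Trimmed of the lowest and highest 2%, every array's mean was 200.0, so arrays had been scaled and no further normalization was applied.

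Names come from GEO's platform annotation, and the gene IDs of all 12 member probe sets matched RefSeq. Signals were converted to log2(signal + 16) and fitted with limma (version 3.58.1; R 4.3.3; lmFit, eBayes with an intensity trend, two-sided) over all 54613 probe sets other than array controls, without a filter, with Benjamini-Hochberg adjustment and a threshold of 0.05. The additive model, with terms for siRNA and for each D3 time, had 5 residual degrees of freedom, that with a siRNA by D3 term 4, and that of 8 group means 2. In the fit of 8 group means, single D3 arrays are assumed to spread as the duplicates do. In the additive model the spread also takes in how the 2 siRNAs differ in their D3 response at each time. The test was checked on simulated data. The number of arrays limits the precision.

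The members and gene lists were chosen with earlier results of these data known. The rule for named genes took all members, listed genes called for D3 or between the siRNAs, CYP24A1, and the 5 genes most correlated with any member above background on at least 5 arrays. Other genes named, as examples of a list or of a pattern, were picked with their values known. Alternatives covered scaling, offset, filter, probe set choice, variance trend, model, replicate number, ACTB ratio, each array left out, and the background limit.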

Additional observations from a re-analysis of the deposited data

How the results depend on the processing

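The D3 difference of KLK6 kept its sign in all 21 alternatives in which it was tested (1.09 to 2.32 over the times, 1.70 to 3.20 at 50 h). Its call over the times was lost in 8 of them and at 50 h in 4. The number of kallikrein probe sets called, 1 for D3 over the times and 1 at 50 h, was 0 for both without an intensity trend, with 8 group means and among the 25% of probe sets with the highest mean, where no member remained to be tested. With an offset of 64 it was 0 over the times. It was 0 to 1 in both with each array left out in turn. Among the highest 50% of probe sets by mean over all arrays 3 members were tested, and KLK6 was called over the times. Its untreated signals lay under the medians of their arrays, so it entered this set through its D3 arrays. That call, and the one with 1 probe set per gene from the same set, therefore adds no support. All probe sets called for D3 over the times, 287 as reported, were 543 in the highest 50%, 687 in the highest 25%, 529 with 1 probe set per gene, 676 with the replicate block, 639 with the ACTB ratio as a covariate, 183 with an offset of 64, 7 without an intensity trend, 5 with 8 group means, 145 with the 2 arrays of highest ACTB ratio left out and 63 to 580 with 1 array left out. Between the siRNAs, 503 as reported, they were 0 without an intensity trend, 1 with 8 group means, 56 with the ACTB ratio as a covariate, 52 with the 2 arrays of highest ratio left out, 322 with median centring, 968 in the highest 50%, 1226 in the highest 25%, 781 with 1 probe set per gene, 1021 with the replicate block and 50 to 664 with 1 array left out. With the replicate number as a block, KLK6 stood at 1.76 (adjusted p = 0.0110). The untreated arrays share only a number, with a correlation of 0.13 between the 2 siRNAs' replicate differences, and the block changed no member's call. The siRNA by D3 difference of KLK6 reversed to 0.10 without LacZi 50 h or without p53i 50 h, not called. These 2 fits give the same estimate by design, since each D3 time has its own term and a lone 50 h array adds nothing. Over all fits without 1 array the difference was -0.80 to 0.10. Why the 50 h arrays differ was not tested. The number of members above background on at least 5 arrays, 1 as reported, was 2 with the 90th percentile, 0 with the 99th and 2 with other silent genes (keratin-associated proteins, taste receptors and defensins). On at least 1 array it was 6 as reported and 3 with the 99th percentile. Low MAS5 signals limit what can be said of the 11 probe sets other than KLK6.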
